A study of Mus musculus with 14 samples.

Results

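Regulatory T cells (Tregs) that have met antigen or settled in tissues switch on a group of genes that resting Tregs hold at lower levels, and 10 of these genes are described here across Il1rn-/- and wild-type Tregs. They are the transcription factor genes Gata3, Irf4, Batf, Prdm1 and Nfil3, the transcriptional inhibitor gene Id2, and the genes Klrg1, Ccr8, Areg and Cd44 for 3 surface receptors and 1 secreted growth factor. The 10 genes were chosen by symbol, all 10 were found among the 14449 genes of the expression table, and all 10 were tested. Il1rn encodes the IL-1 receptor antagonist, and mice without it have IL-1 signalling with this brake removed.

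The cells were CD4+ Foxp3eGFP+ cells, sorted by the reporter of the lineage factor Foxp3 from lymph nodes of BALB/c mice on postnatal day 35. There were 7 Il1rn-/- libraries, 3 in a set a and 4 in a set b, and 7 wild-type libraries, also 3 in set a and 4 in set b. The sets are the letters of the sample titles, and the labels do not say what the letters stand for. The labels also do not say that libraries came from separate animals, so p-values measure the spread between libraries, which may be partly technical. The genotype labels could not be checked with Il1rn, which the table used here does not hold. The comparison asks whether Tregs of mice without the antagonist carry more or less of this program.

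As background, BATF and IRF4 bind DNA together, BATF paired with a JUN protein, at composite sites that open in T cells after antigen receptor signals. Their targets in Tregs include Prdm1, which encodes the repressor Blimp-1, and Ccr8 and Klrg1 mark the cells in which the program is advanced. GATA3 is shared with type 2 helper T cells and is prominent in Tregs of skin and gut, and amphiregulin, the product of Areg, is the growth factor by which tissue Tregs act on repair of epithelium and muscle.

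Libraries stood apart in ways that the labels do not give, and each result is set beside them. In 6 libraries, Il1rn-/- 1-b and 2-b and wild-type 1-b to 4-b, the share of reads in Rn45s, the gene of the ribosomal RNA precursor, was 59.6% to 65.8%, and these are called rRNA-rich. They had 384360 to 905988 reads outside Rn45s, against 1654868 to 2805693 in the 8 other libraries (5 Il1rn-/-, 3 wild-type). Transcripts of 4 Y-linked genes had 374 to 808 reads in Il1rn-/- 3-b and 4-b and wild-type 1-a and 2-a, and 0 to 2 reads in the 10 other libraries. Sex is not among the labels used here. Within set a the Y-linked transcripts were thus in wild-type libraries alone, and within set b in Il1rn-/- libraries alone, and all 4 of these libraries were outside the rRNA-rich class. Foxp3 had 315 to 2049 reads and Cd4 306 to 1410, and all 9 Treg and T cell markers were found in every library. Scaled to CPM without Rn45s, the 9 summed to 4505 to 7427 in Il1rn-/- and 4699 to 7415 in wild type.

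In Il1rn-/- Tregs none of the 10 genes passed the test against wild type, and neither did any other gene. Differences are given on the log2 scale as the limma estimate ± SE, Il1rn-/- minus wild type with the set as a term, and a gene is called at an adjusted p under 0.05 after Benjamini-Hochberg adjustment over all 12329 genes tested. By that rule 0% of all genes were called in the comparison over both sets, in set a alone, in set b alone and in the difference between the sets, so the count of 0 called among the 10 members equals the background. At an unadjusted p under 0.05, limma had 679 of all tested genes and 0 of the members over both sets. Limma voom on recovered reads called 0 genes as well, with 733 at an unadjusted p under 0.05. The member differences ran from -0.26 to 0.13, 4 positive and 6 negative, with a median of -0.07 beside a median of 0.04 over all genes tested.

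The level of each gene is given as log2 CPM, the library-scaled read count (CPM) on a log2 scale. Transcript length does not enter, so levels are compared between libraries and not between genes. Fewer cells in which a gene is on and less RNA of it in each cell cannot be told apart in such bulk samples.

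Gata3, which encodes the zinc finger factor GATA3, was at 6.76, 6.77 and 6.87 log2 CPM in Il1rn-/- 1-a to 3-a, against 7.20, 7.03 and 6.39 in wild-type 1-a to 3-a. Gata3 was at 6.38, 6.75, 7.39 and 6.98 log2 CPM in Il1rn-/- 1-b to 4-b, against 6.46, 6.75, 6.59 and 6.54 in wild-type 1-b to 4-b. The genotypes overlapped in both sets, and the 4 highest libraries, 2 of each genotype, were the 4 with Y-linked transcripts. The difference was 0.13 ± 0.16 over both sets, with a 95% confidence interval of -0.21 to 0.47 and an adjusted p of 0.882 by limma. Gata3 had 83 to 560 reads per library.

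Irf4, the partner of BATF in activated T cells, was at 5.52, 5.72 and 5.65 log2 CPM in Il1rn-/- 1-a to 3-a, against 6.19, 6.32 and 5.38 in wild-type 1-a to 3-a. It was at 6.17, 6.12, 5.57 and 6.28 log2 CPM in Il1rn-/- 1-b to 4-b, against 5.84, 6.61, 6.17 and 6.35 in wild-type 1-b to 4-b. All 3 Il1rn-/- libraries of set a lay between the lowest wild-type library and the 2 others, and in set b the genotypes overlapped. The difference of -0.26 ± 0.17 was the most negative of the 10, with an interval of -0.62 to 0.09 and an adjusted p of 0.797 by limma. It was -0.09 with the rRNA class and the Y-linked class in place of the set, and 0.03 over only the 10 libraries without Y-linked transcripts, both alternatives chosen after the data were seen.

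Batf, which encodes the basic leucine zipper partner of JUN and IRF4, averaged 5.81 ± 0.39 log2 CPM in Il1rn-/- and 5.96 ± 0.22 in wild type (SD, n = 7 each). Its values lay between 5.23 and 6.29 in Il1rn-/-, against 5.80 and 6.44 in wild type. The 3 lowest of the 14 values were in Il1rn-/-, and the ranges overlapped. The difference was -0.15 ± 0.17, with an interval of -0.51 to 0.20. In set b the 4 wild-type libraries lay close together, at 5.88 ± 0.05 (SD, n = 4), against 5.75 ± 0.44 in the 4 Il1rn-/- libraries.

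Prdm1, the gene of the repressor Blimp-1, was at 4.23, 5.18 and 5.48 log2 CPM in Il1rn-/- 1-a to 3-a, against 5.92, 5.06 and 3.67 in wild-type 1-a to 3-a. It was at 4.85, 4.81, 4.17 and 4.89 log2 CPM in Il1rn-/- 1-b to 4-b, against 4.52, 4.19, 4.31 and 5.44 in wild-type 1-b to 4-b. Wild-type 1-a and 3-a held the highest and the lowest of all 14 values, so both extremes were in 1 group. The difference was 0.07 ± 0.30, with an interval of -0.55 to 0.69. Plasma cells express Prdm1 and Irf4 strongly, and wild-type 1-a also had the highest sum of the 8 plasma cell markers, of which 7 are in the table. That sum, in CPM without Rn45s, was 66.7 to 378 in Il1rn-/- and 190 to 554 in wild type, with 413 Ighg1 reads in wild-type 1-a. By the median over libraries Xbp1 had the most reads of these markers, 271.5, followed by Igkc at 42.5. Xbp1 had 84 to 456 reads and was thus found in every library. The defining marker Sdc1 was at 0 reads in 9 libraries and Jchain in 8. Both had their most reads in wild-type 1-a, 9 for Sdc1 and 27 for Jchain, and Il1rn-/- 2-a had 25 Jchain reads. Cells were sorted on CD4 and the Foxp3 reporter, and the part of plasma cells in the Prdm1 and Irf4 values was not tested.

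Nfil3, which encodes a basic leucine zipper factor induced by cytokines and antigen, was at 1.01, 3.66 and 3.15 log2 CPM in Il1rn-/- 1-a to 3-a, against 4.06, 3.53 and 1.85 in wild-type 1-a to 3-a. It was at 0.94, 3.15, 3.95 and 3.93 log2 CPM in Il1rn-/- 1-b to 4-b, against 2.91, 2.31, 3.55 and 2.61 in wild-type 1-b to 4-b. The Il1rn-/- libraries thus held the 2 lowest values, with 9 and 3 reads, and overlapped with wild type elsewhere. The difference of -0.15 ± 0.51 has an interval of -1.20 to 0.91. Id2, whose product blocks E proteins and sustains effector T cells, averaged 4.66 ± 0.45 log2 CPM in Il1rn-/- and 4.67 ± 0.38 in wild type (SD, n = 7 each), a difference of -0.0020 ± 0.22.

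**Figure D1:**
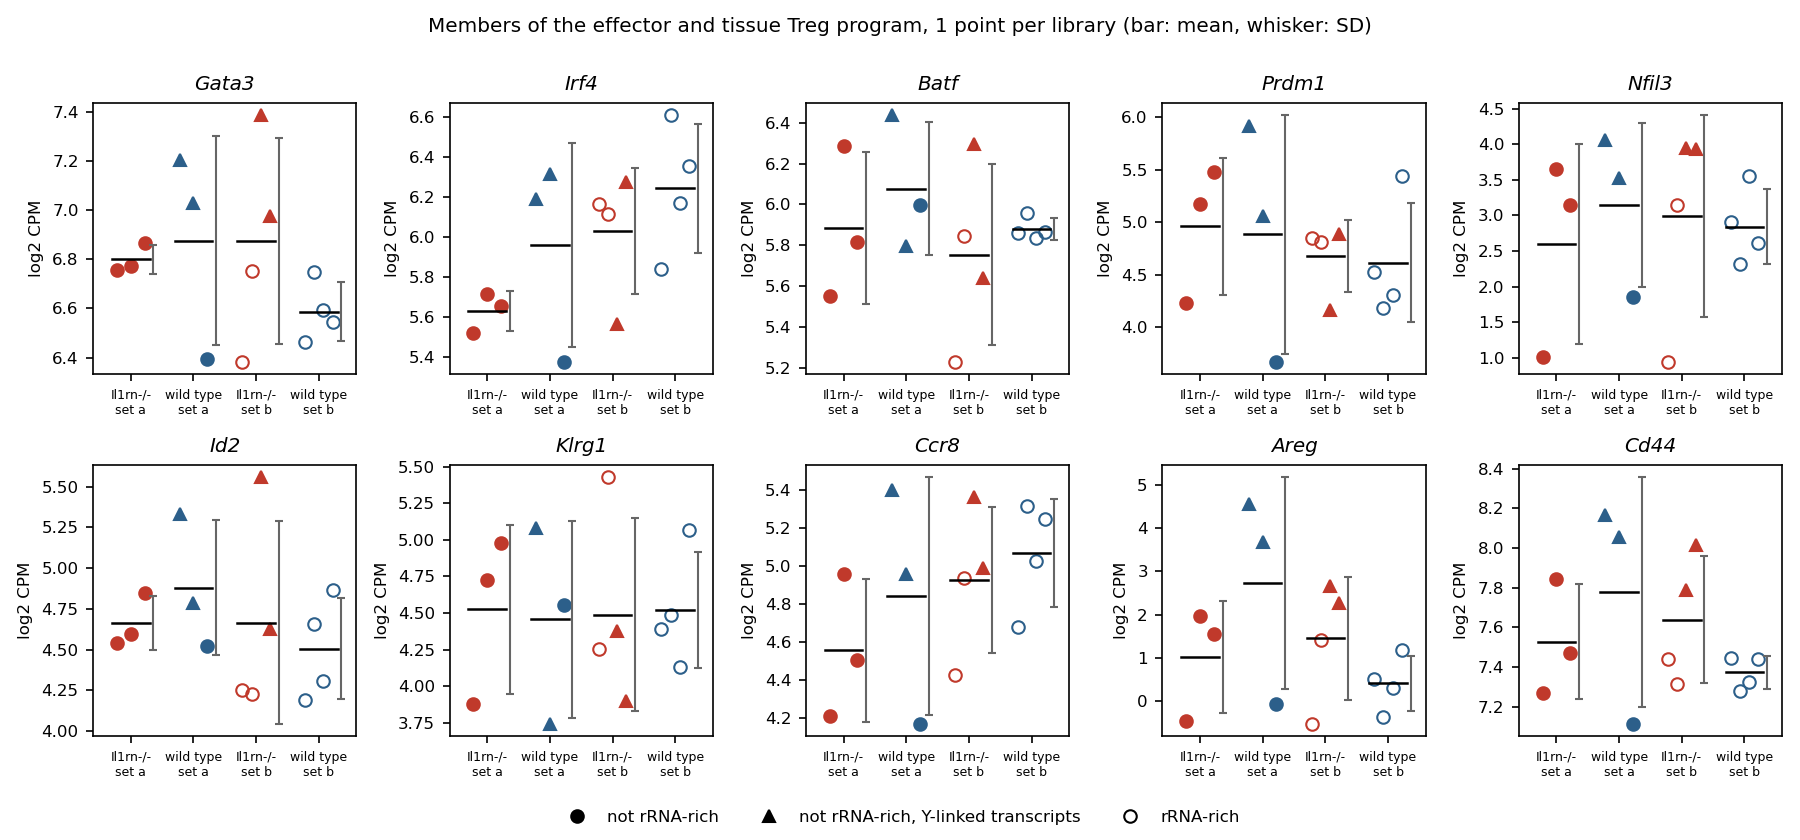
Log2 CPM of the 10 genes by library (vertical axes, 1 panel per gene, each with its own scale), with Il1rn-/- left of wild type in set a and in set b. Points are libraries, bars are group means and whiskers are SD. Triangles are the libraries with Y-linked transcripts and open circles the rRNA-rich ones. The triangles are the 4 highest points for Gata3 and Areg.

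Among the receptors and the secreted factor the genotypes also overlapped. Klrg1, an inhibitory receptor for E-cadherin and a marker of terminally differentiated Tregs, lay between 3.88 and 5.43 log2 CPM in Il1rn-/-, against 3.74 and 5.08 in wild type, and its difference was 0.01 ± 0.26. Cd44, the hyaluronan receptor that antigen-experienced T cells keep high, was at 7.27, 7.84 and 7.47 log2 CPM in Il1rn-/- 1-a to 3-a, against 8.17, 8.05 and 7.11 in wild-type 1-a to 3-a. Cd44 was at 7.44, 7.31, 7.79 and 8.01 log2 CPM in Il1rn-/- 1-b to 4-b, against 7.45, 7.28, 7.33 and 7.44 in wild-type 1-b to 4-b. The 4 wild-type libraries of set b spanned less than any other group, and Il1rn-/- 3-b and 4-b lay above them. The Cd44 difference was 0.04 ± 0.18 over both sets, with an interval of -0.33 to 0.42.

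Ccr8, the chemokine receptor of skin and tumour Tregs, was at 4.21, 4.96 and 4.50 log2 CPM in Il1rn-/- 1-a to 3-a, against 5.40, 4.96 and 4.17 in wild-type 1-a to 3-a. It was at 4.43, 4.94, 5.36 and 4.99 log2 CPM in Il1rn-/- 1-b to 4-b, against 4.68, 5.32, 5.03 and 5.25 in wild-type 1-b to 4-b. The ranges of the genotypes nearly coincided, and the difference was -0.20 ± 0.20 with an interval of -0.63 to 0.23.

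Areg had the fewest reads and the widest spread of the 10 genes. In set a it had 3, 15 and 13 reads in the Il1rn-/- libraries (-0.46, 1.97 and 1.55 log2 CPM), against 83, 55 and 5 reads in the wild-type ones (4.55, 3.69 and -0.06 log2 CPM). In set b it had 1, 5, 20 and 14 reads in the Il1rn-/- libraries (-0.52, 1.42, 2.67 and 2.26 log2 CPM), against 2, 1, 1 and 4 reads in the wild-type ones (0.52, -0.36, 0.32 and 1.19 log2 CPM). In set a 2 wild-type libraries lay above all Il1rn-/- ones, and in set b 3 Il1rn-/- libraries lay above all wild-type ones. The difference over both sets was -0.14 ± 0.74, with an interval of -1.70 to 1.42.

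**Figure D2:**
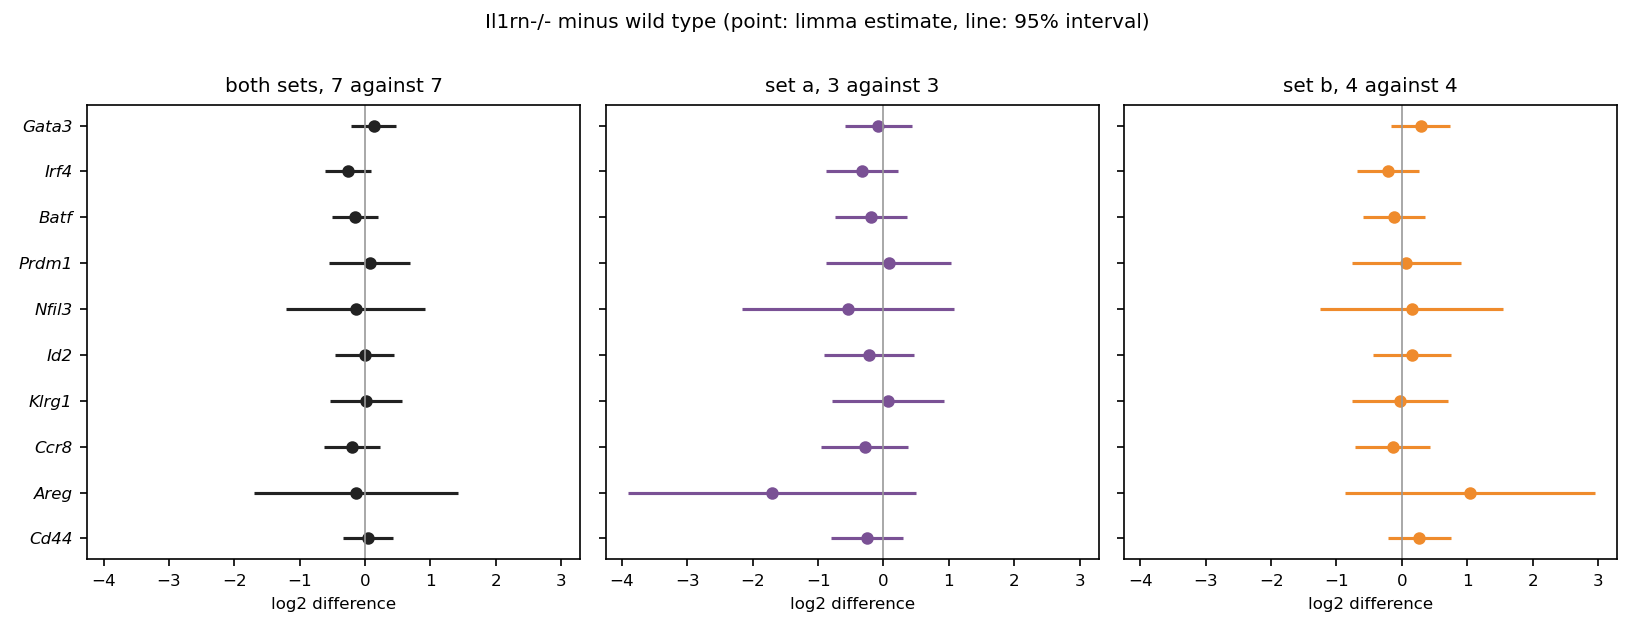
Il1rn-/- minus wild type on the log2 scale for the 10 genes (horizontal axis, the same in each panel), over both sets (7 against 7), in set a (3 against 3) and in set b (4 against 4). Points are limma estimates and lines are 95% confidence intervals, all of which include 0. The interval of Areg is the widest in each panel.

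The sets were also fitted apart, and 4 of the 10 members, Irf4, Batf, Prdm1 and Ccr8, had estimates of the same sign in both. None of the 10 differences between the sets had an unadjusted p under 0.05, which 968 of all genes had. In set a 8 of the 10 differences were negative, with a median of -0.23 beside 0.03 over all genes, and in set b 6 were positive, with a median of 0.11 beside 0.05. None had an unadjusted p under 0.05 in either set, where 243 and 1848 of all genes did. Areg had the largest estimates, -1.71 ± 1.05 in set a and 1.04 ± 0.91 in set b. The difference between these, set b minus set a, was 2.75 ± 1.39, with an adjusted p of 0.647 by limma and an interval of -0.17 to 5.66. For Gata3 the same difference between sets was 0.36 ± 0.32 and for Cd44 0.52 ± 0.35, and neither passed. Y-linked transcripts were in 2 of 3 wild-type libraries of set a and in 2 of 4 Il1rn-/- libraries of set b, and all 4 wild-type but only 2 Il1rn-/- libraries of set b were rRNA-rich. Their part in the differences between the sets was not tested. With the rRNA class as a further term, the set b differences became -0.02 for Gata3, -0.80 for Nfil3, -0.27 for Id2 and 0.32 for Klrg1, each with the opposite sign. That fit compares Il1rn-/- 1-b and 2-b with the 4 wild-type libraries of set b. The 2 libraries it sets aside, Il1rn-/- 3-b and 4-b, were outside the rRNA-rich class and had Y-linked transcripts. The 2 classes cannot be told apart here.

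In the libraries with Y-linked transcripts, 2 of each genotype, most members had a positive difference, and none passed the test over all genes. In a fit with genotype and rRNA class, chosen after the data were seen, 9 of the 10 differences, libraries with Y-linked transcripts minus others, were positive, with a median of 0.49 beside -0.02 over all genes. By limma, 46 of 12329 genes were called, or 0.373%, of which 39 were higher, and 842 genes had an unadjusted p under 0.05. The 4 Y-linked genes that define the class were not left out of the fit or of the shares over all genes. Of the members 0 were called and 6 had an unadjusted p under 0.05. Outside the rRNA-rich class, Il1rn-/- 3-b and 4-b had these transcripts and Il1rn-/- 1-a to 3-a did not. In Il1rn-/- the Y-linked class and the set thus cannot be told apart in this fit. In wild type, 3-a was the only library outside the rRNA-rich class without these transcripts. Wild-type 3-a also held the lowest value of Irf4, Prdm1, Ccr8 and Cd44.

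Areg averaged 3.29 ± 1.03 log2 CPM in the 4 libraries with Y-linked transcripts and 0.56 ± 0.92 in the 10 others (SD), and its fitted difference of 2.47 ± 0.70, or 5.56-fold, had an adjusted p of 0.213 by limma. With voom on recovered reads it was 2.52 with an adjusted p of 0.0191, the lowest over its alternatives, which reached 0.583. Cd44 averaged 8.01 ± 0.16 log2 CPM in the 4 libraries and 7.39 ± 0.19 in the 10 others (SD), a difference of 0.59 ± 0.16 with an adjusted p of 0.167. Gata3 averaged 7.15 ± 0.18 log2 CPM against 6.63 ± 0.17 (SD, n = 4 and 10), a difference of 0.48 ± 0.15 with an adjusted p of 0.347 by limma. For both Areg and Gata3 each of the 4 libraries lay above each of the 10 others, which held for 0.99% of all tested genes. Ccr8 differed by 0.70 ± 0.24, Irf4 by 0.50 ± 0.19 and Nfil3 by 1.42 ± 0.57, with adjusted p-values of 0.419, 0.546 and 0.576 by limma. For Irf4 the means were 6.09 ± 0.35 log2 CPM in the 4 libraries and 5.95 ± 0.39 in the 10 others (SD). Of those 10, the 4 that were not rRNA-rich averaged 5.57 ± 0.15. The differences of Id2, 0.43 ± 0.23, and Prdm1, 0.39 ± 0.40, had intervals that include 0. Batf differed by 0.07 ± 0.21 and Klrg1 by -0.25 ± 0.34. When libraries were rescaled without ribosomal RNA, the median over all genes moved to -0.18, and against it Areg at 2.36, Cd44 at 0.43, Gata3 at 0.32 and Ccr8 at 0.54 were still positive.

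Of the 25 tested receptors and signalling genes that feed the program 1, Nr4a1, was called in the libraries with Y-linked transcripts, and of the 19 partners and antagonists 3 were, Jun, Fos and Junb. Nr4a1, an early reporter of antigen receptor signalling, rose by 1.67 ± 0.21 (adjusted p of 0.000171 by limma), Jun by 1.31 ± 0.21 (0.00387), Fos by 2.04 ± 0.40 (0.0269) and Junb by 1.52 ± 0.29 (0.0216). Other genes of the same lists that stimulation can induce did not pass, with Fosl2 at 2.44 ± 0.70, Nr4a3 at 1.54 ± 0.63, Egr3 at 0.73 ± 1.03, Egr2 at -0.09 ± 0.23 and Jund at -0.15 ± 0.66. Ctla4, the inhibitory receptor of Tregs, rose by 0.85 ± 0.17 with an adjusted p of 0.0365 by limma, and is named here after its values were seen. The calls of Fos, Junb and Ctla4 were lost under several alternatives, with adjusted p-values of up to 0.22, 0.185 and 0.197, and that of Jun with no intensity trend, at 0.0821. Nr4a1 stayed called under all alternatives run, at up to 0.0131. Of the 46 other effector and tissue Treg genes 33 had a positive difference and 1 was called, with a median of 0.18, and of the 20 genes of resting Tregs 10 were positive and 0 were called, with a median of 0.01.

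**Figure D3:**
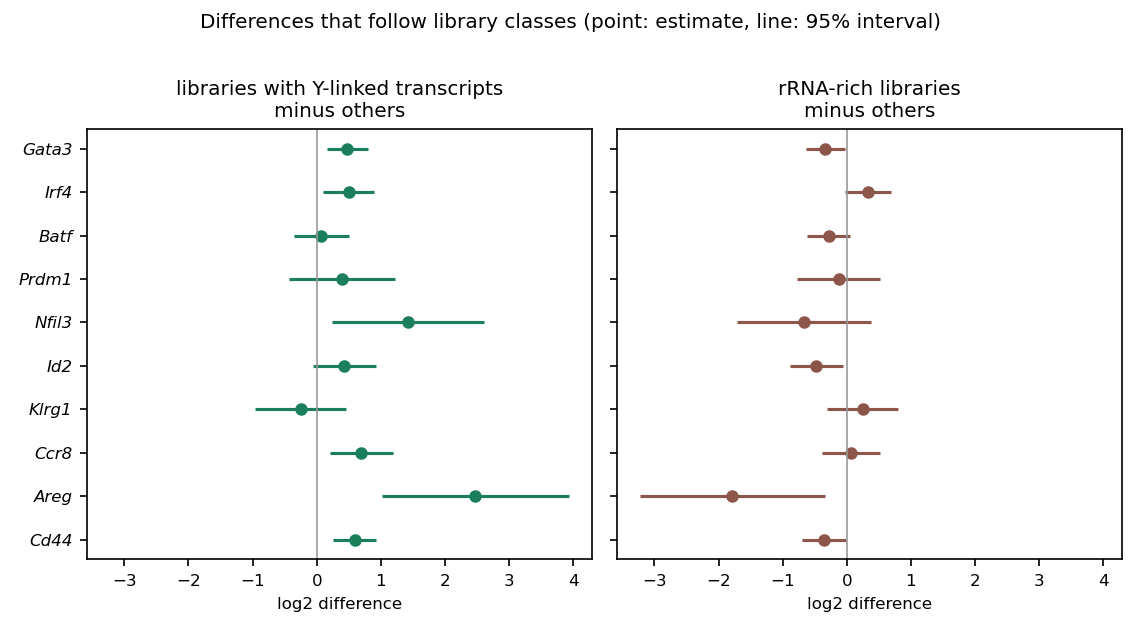
Log2 differences of the 10 genes between library classes (horizontal axis, the same in both panels): libraries with Y-linked transcripts minus others, and rRNA-rich libraries minus others. Points are limma estimates and lines are 95% confidence intervals, with genotype as a term in both fits and the rRNA class also in the Y-linked one. For the Y-linked libraries 6 intervals lie above 0, and for the rRNA-rich libraries 4 lie below it, where 6.83% and 45.5% of all genes had an unadjusted p under 0.05.

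The rRNA-rich libraries differed from the others in a large part of the transcriptome. With genotype as a term, 36.1% of all genes were called between these classes, 1983 higher and 2464 lower in rRNA-rich libraries, and 1 of the 10 members was. At an unadjusted p under 0.05 there were 4 of the 10 members and 45.5% of all genes, so neither count of members is above the background. The member called was Areg, at 0.43 ± 0.79 log2 CPM in the 6 rRNA-rich libraries and 2.02 ± 1.70 in the 8 others (SD), a difference of -1.78 ± 0.69 with an adjusted p of 0.0491 by limma. The call is at the threshold: it was kept without Il1rn-/- 1-a, Il1rn-/- 2-b or wild-type 3-a and lost without any of the 11 other libraries, with the estimate between -1.27 and -2.38. With the Y-linked class as a further term the difference was -0.44, with an adjusted p of 0.669 by limma. Gata3 at -0.33 ± 0.15, Cd44 at -0.36 ± 0.16 and Id2 at -0.47 ± 0.20 had unadjusted p-values under 0.05 and did not pass. With wild-type 3-a left out they did pass, at -0.45, -0.51 and -0.57 in that order, and Id2 also passed with wild-type 4-b left out, at -0.54. Irf4 was at 0.33 ± 0.17 and did not pass, and with the Y-linked class as a further term it passed, at 0.60 with an adjusted p of 0.0206 by limma. The 5 remaining members had intervals that include 0, with Batf at -0.28 ± 0.16, Prdm1 at -0.13 ± 0.31, Nfil3 at -0.66 ± 0.50, Klrg1 at 0.25 ± 0.26 and Ccr8 at 0.07 ± 0.22.

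Of the genes for AP-1 proteins, among which BATF finds its JUN partners, Junb, Jun and Fos were lower in rRNA-rich libraries, while Jund at 0.20 ± 0.50, Fosl2 at -1.17 ± 0.69 and Batf did not pass. Junb averaged 7.31 ± 0.60 log2 CPM in rRNA-rich libraries and 10.72 ± 0.85 in the others, Jun 5.88 ± 0.25 and 8.64 ± 0.76, and Fos 4.72 ± 0.93 and 8.80 ± 1.14 (SD, n = 6 and 8). The fitted differences were -3.42 ± 0.35 for Junb, -2.77 ± 0.28 for Jun and -4.16 ± 0.47 for Fos, with adjusted p-values of 2.68e-07, 2.37e-07 and 9.93e-07 by limma. Of the 19 tested partners and antagonists of the member factors 3 were higher and 3 lower in the rRNA-rich libraries, a share below that of all genes. The higher ones were Dbp, a clock factor that binds the same DNA element as NFIL3, by 1.89 ± 0.41, Bcl6, which opposes Blimp-1, by 1.83 ± 0.33, and Id3, the relative of Id2 kept high by resting and follicular cells, by 1.46 ± 0.29. Of the 46 other effector and tissue Treg genes 2 were higher and 12 lower. Among the lower ones the anti-inflammatory cytokine gene Il10 differed by -2.42 ± 0.86, with 0 to 5 reads in rRNA-rich libraries, and by -1.01 with the Y-linked class as a further term, where its call was lost at an adjusted p of 0.447 by limma. It averaged -0.01 ± 2.06 log2 CPM in the rRNA-rich libraries, 3.64 ± 0.42 in those with Y-linked transcripts and 1.11 ± 1.10 in the 4 remaining ones (SD, n = 6, 4 and 4). Of the 20 resting Treg genes 5 were higher, among them the gut-homing receptor gene Ccr9 by 1.21 ± 0.38, and 0 were lower. Over both directions the shares called of these 2 lists were also below that of all genes. By direction, 16.1% of all genes were higher and 20% lower. The 12 of 46 lower and the 5 of 20 higher are above these shares, and the 2 of 46 higher and 0 of 20 lower are below them. Mitochondrial ribosomal RNA took 2.97% to 4.12% of the reads outside Rn45s in rRNA-rich libraries and 8.82% to 16.6% in the others. The 9 Treg and T cell markers summed to 6098 to 7427 CPM without Rn45s in rRNA-rich libraries and 4505 to 5048 in the others, with 4 of them called higher and 3 lower. The B cell markers summed to 48.7 to 127 CPM without Rn45s in rRNA-rich libraries and 34.4 to 139 in the others, which overlapped. Of the 9 tested, 2 differences were positive and 7 negative, with 0 called higher and 2 lower. Their median was -1.15 beside -0.12 over all genes. The 9 markers of CD8 T and NK cells, of which 8 are in the table, summed to 104 to 190 CPM without Rn45s in rRNA-rich libraries and 98.3 to 108 in the others, with 2 called higher and 0 lower. The part of these shifts in the differences between the classes was not tested.

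**Figure D4:**
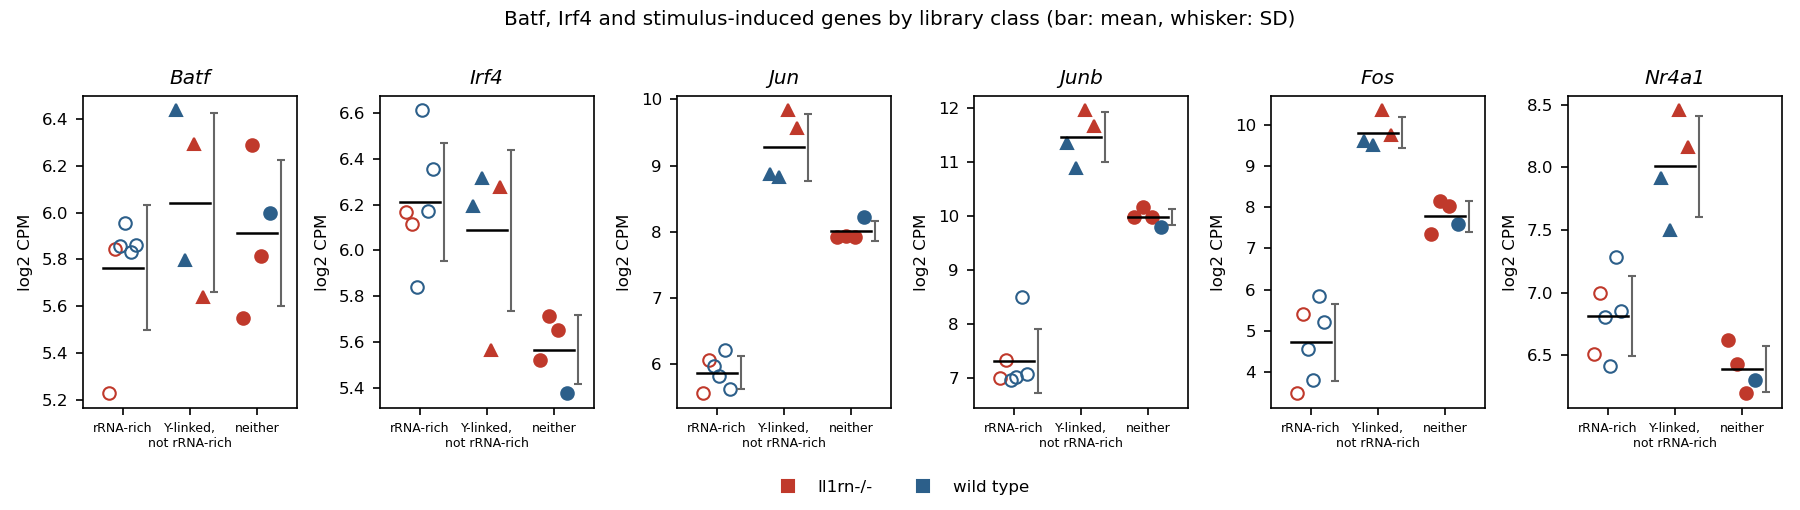
Log2 CPM (vertical axes, each with its own scale) of Batf, Irf4 and 4 genes induced by stimulation in rRNA-rich libraries (open circles), libraries with Y-linked transcripts (triangles) and the remaining libraries (filled circles). Bars are means and whiskers SD, red is Il1rn-/- and blue wild type. Jun, Junb and Fos do not overlap between the 3 classes, whereas Batf overlaps in all of them.

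Between the sets, with genotype as a term, 19.5% of all genes were called and 0 of the 10 members. In set b 2 of the 19 tested partners and antagonists were called higher and 0 lower, and of the 46 other effector and tissue Treg genes 1 and 6. Of the 20 resting Treg genes 4 were higher and 0 lower, and of the 25 receptors and signalling genes 3 and 3. Over all genes 8.48% were higher and 11% lower. The 4 largest of the higher list genes were Bcl6 (1.61 ± 0.36), Id3 (1.16 ± 0.33), the IL-2 receptor subunit gene Il2rb (0.89 ± 0.19) and Actn1 (0.80 ± 0.27). Actn1 encodes an actin crosslinker of resting T cells. The 4 largest of the lower ones were Il18rap (-1.48 ± 0.38) and Il18r1 (-1.41 ± 0.32), for the subunits of the IL-18 receptor, the chemokine receptor gene Ccr2 (-1.34 ± 0.29) and Rora (-1.24 ± 0.30), a nuclear receptor of tissue Tregs. With the rRNA class as a further term only 12 genes of the whole table were called between the sets.

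None of the genes around the program passed the test between genotypes either. Of the 19 tested partners and antagonists 10 differences were positive and 9 negative, with a median of 0.08. Zfpm1, whose product FOG1 binds GATA factors, averaged 1.28 ± 0.49 log2 CPM in Il1rn-/- and 2.25 ± 0.40 in wild type (SD, n = 7 each), a difference of -0.97 ± 0.35 with an adjusted p of 0.787 by limma and 2 to 20 reads per library. Junb at 0.93 ± 0.70, Fos at 0.92 ± 0.87 and Jun at 0.75 ± 0.58 had positive differences, which became -0.05, -0.27 and -0.04 with the rRNA class in place of the set. Of the 46 other effector and tissue Treg genes 25 were positive and 21 negative, with a median of 0.05. The smallest p-values among them were those of the inhibitory receptor gene Pdcd1 (0.39 ± 0.20), the secreted suppressor gene Fgl2 (0.43 ± 0.23), the activation marker gene Cd83 (0.35 ± 0.19) and the skin-homing receptor gene Ccr4 (-0.40 ± 0.23).

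Of the 20 genes of resting Tregs 8 differences were positive and 12 negative, with a median of -0.04. Among them Ly6c1, a surface protein gene of resting cells, had 0 to 7 reads in Il1rn-/- libraries and 0 to 3 in wild-type ones, too few for its estimate to be read as a size. The chromatin organiser gene Satb1 differed by -0.29 ± 0.14, the IL-6 receptor gene Il6ra by 0.28 ± 0.17 and the lymph node egress receptor gene S1pr1 by -0.23 ± 0.15. Of the 25 tested receptors and signalling genes that feed the program 13 were positive and 12 negative, with a median of 0.01. Il1rl1, the receptor of the tissue alarmin IL-33, differed by -0.46 ± 0.28, the IL-27 receptor gene Il27ra by 0.26 ± 0.14, and the IL-2 receptor genes Il2ra and Il2rb by -0.22 ± 0.14 and -0.29 ± 0.19. Both of the IL-2 receptor differences were close to 0 with the rRNA class in place of the set, at -0.01 and 0.01.

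Across libraries the members varied together. Wild-type 1-a held the highest value of 6 of the 10 genes, Batf, Prdm1, Nfil3, Ccr8, Areg and Cd44. Wild-type 3-a held the lowest value of Irf4, Prdm1, Ccr8 and Cd44, and Il1rn-/- 1-b the lowest of Gata3, Batf, Nfil3 and Areg. After genotype and rRNA class were removed, 42 of the 45 pairs of members had a positive Pearson's r over the 14 libraries, with a median of 0.51 and a range from -0.12 to 0.88. Over all pairs of the 5227 genes with a mean of at least 4 log2 CPM the median r was 0.0021 and 50.2% were positive, and the 8 members above that level had a median of 0.49 over their 28 pairs. The points of each r share their library, and with it depth and scaling. The median of the member pairs was 0.44 when the Y-linked class was also removed, and 0.52 with the set removed in place of the rRNA class. Leaving out 1 library at a time it was 0.42 to 0.57, and without both wild-type 1-a and 3-a it was 0.36, with 37 pairs positive.

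Gata3 and Ccr8 were the closest pair, with r of 0.88, Spearman's rho of 0.84, and r of 0.75 without the 2 libraries farthest from the median of Gata3. Areg and Cd44 came next, with r of 0.86, rho of 0.71, and r of 0.66 without the 2 libraries farthest from the median of Areg. Nfil3 followed Areg at 0.79 and Ccr8 at 0.77, and Gata3 followed Id2 at 0.76. Batf and Irf4, whose products work as a complex, had r of -0.09 and rho of -0.03. Klrg1 was close to 0 or below with Irf4 at -0.12 and Cd44 at -0.02, and was nearest to Batf at 0.65.

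**Figure D5:**
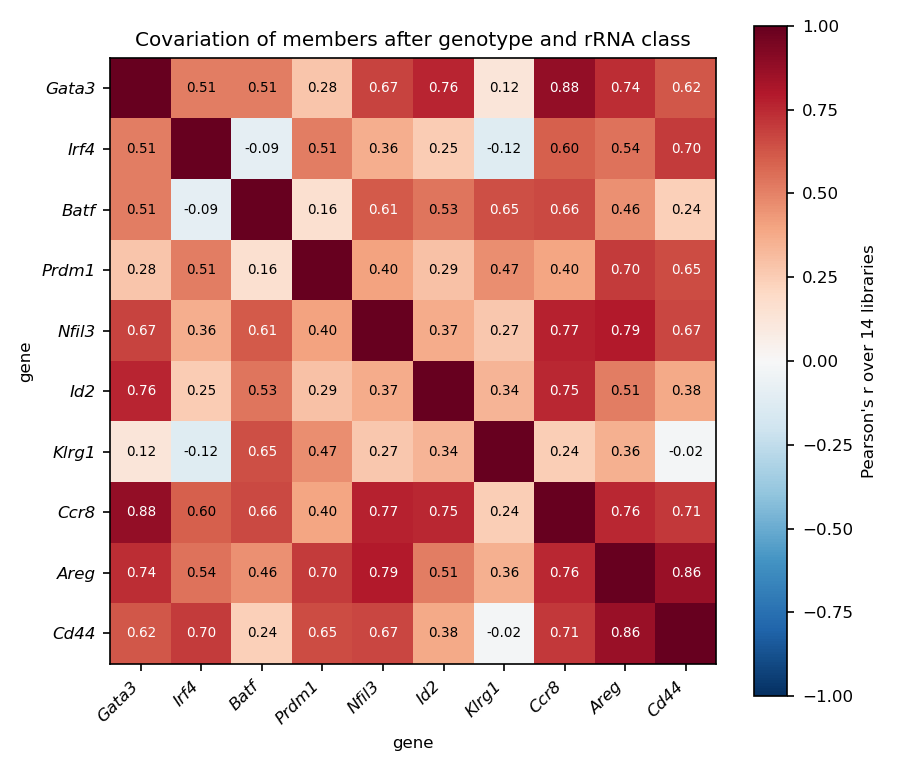
Pearson's r between the 10 genes (both axes) over 14 libraries, after genotype and rRNA class were removed by a linear fit. Red is positive and blue negative on a scale from -1 to 1. The highest value is 0.88 for Gata3 and Ccr8, and 3 of 45 pairs are below 0.

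Among all 5227 genes with a mean of at least 4 log2 CPM, the gene that followed each member most closely by the same measure was none of the other members. It was Gadd45b for Gata3 (r of 0.91), Atad2 for Irf4 (0.91), Tkt for Batf (0.95), Azin1 for Prdm1 (0.90) and Cd3e for Nfil3 (0.90). It was Arpc4 for Id2 (0.89), Cmtm7 for Klrg1 (0.92), Ppil1 for Ccr8 (0.92), Stt3a for Areg (0.92) and P2ry10 for Cd44 (0.91). Each is the highest of at least 5226 values computed on 14 libraries.

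The promoters of the 2 closest pairs are shown because these genes moved together. RefSeq sequences on the mouse build GRCm38.p6 were matched by symbol for 9 of the 10 members, with Klrg1 the one without an entry. The 250 bases upstream of the annotated start are printed 5′ to 3′ on the strand of the gene, in lower case with motif matches in capitals.
Gata3 (chr2:9878601-9878850, minus strand): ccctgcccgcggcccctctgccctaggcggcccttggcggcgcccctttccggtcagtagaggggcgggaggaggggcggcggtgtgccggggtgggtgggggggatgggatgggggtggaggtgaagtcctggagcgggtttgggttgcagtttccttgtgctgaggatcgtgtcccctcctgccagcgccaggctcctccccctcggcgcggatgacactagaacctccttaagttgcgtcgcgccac
Ccr8 (chr9:120091883-120092132, plus strand): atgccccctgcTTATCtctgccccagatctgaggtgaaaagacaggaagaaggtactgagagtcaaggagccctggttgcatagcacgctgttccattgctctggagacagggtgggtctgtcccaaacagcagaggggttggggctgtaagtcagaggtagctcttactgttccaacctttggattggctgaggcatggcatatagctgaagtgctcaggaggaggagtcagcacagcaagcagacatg
Areg (chr5:91139349-91139598, plus strand): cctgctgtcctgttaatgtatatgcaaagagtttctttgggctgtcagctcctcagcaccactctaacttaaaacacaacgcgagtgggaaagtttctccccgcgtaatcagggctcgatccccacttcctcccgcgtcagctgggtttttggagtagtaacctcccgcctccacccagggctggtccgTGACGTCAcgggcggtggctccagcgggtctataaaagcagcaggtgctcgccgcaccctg
Cd44 (chr2:102901666-102901915, minus strand): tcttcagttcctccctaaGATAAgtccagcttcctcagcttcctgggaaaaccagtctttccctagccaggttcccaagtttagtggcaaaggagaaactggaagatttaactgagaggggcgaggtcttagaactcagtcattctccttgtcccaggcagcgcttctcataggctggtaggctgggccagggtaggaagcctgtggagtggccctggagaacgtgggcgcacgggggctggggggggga

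Capitals mark the GATA core GATAA, on either strand, in Ccr8 and Cd44, and the cyclic AMP response element TGACGTCA in Areg. The 5 motifs were searched on both strands in the same window of 27025 genes. The GATA core was found in Batf, Ccr8 and Cd44 and in 23% of all genes, and the cyclic AMP response element in Areg, 61 bases before the start, and in 1.62% of all genes. The AP-1 site TGANTCA, which JUN and FOS proteins bind, was found in Prdm1, 48 bases before the start, and in 6.87% of all genes. The NFIL3 site TTANGTAA was found in 0 of the 9 members and 2.11% of all genes. The composite of TTTC, any 4 bases and the AP-1 site, a form bound by BATF, JUN and IRF4 together, was found in 0 of the 9 and in 0.0851% of all genes, and each of its matches contains an AP-1 site. These are matches of letters in 1 window, not sites of binding, and neither printed pair shares one of the motifs searched.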

How the data were processed

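CD4+ Foxp3eGFP+ cells gave 14 Smart-Seq2 libraries, from RNA extracted with the Qiagen RNeasy Micro kit. Per the labels' protocols, Cuffquant 2.2.1 quantified transcripts, and per the submitters' processing notes TopHat2 2.0.10, BWA, Cuffnorm and Cufflinks 2.2.1 were used. Build, annotation, and the treatment of strand and of shared reads are not given in the sources used. The authors deposited log2 CPM values with a small prior count, whose shared minimum of -3.58 stands for 0 reads. The linear steps gave back whole reads, 100% of them to within 0.001, which served for depth (952021 to 3756559 reads per library), single-gene reads and voom. Intervals cover the spread between libraries, and a read is not a molecule, since PCR copies were not told apart by molecular identifiers.

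Testing took genes that exceeded a CPM of 1 in 3 or more libraries, using limma (3.58.1, R 4.3.3) with its intensity trend and two-sided moderated statistics. Terms were genotype and set. A model of 4 group means gave each set and their difference, and 2 further fits used genotype with the rRNA class (Rn45s over 50% of linear CPM) and then the Y-linked class (at least 20 reads over 4 genes). The Y-linked class and its alternatives, and voom, were chosen after seeing the data. Fits were tested on simulated data. The members and lists were chosen with earlier results of these data known. Named genes were all members, the 4 genes per list with the smallest p between genotypes, up to 4 per direction that passed a comparison, 1 closest gene per member, and defining markers. Replicate numbers were not used as pairs in the main fits. The deviations of same-numbered libraries had r of -0.15 to 0.00052, which cannot show whether they were paired. Figures were drawn with matplotlib 3.10.9 in Python 3.11.15.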

Additional observations from a re-analysis of the deposited data

Results flagged for a closer look

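The members were screened for single libraries that stand apart, in the 4 libraries of each genotype in set b and in the 7 of each genotype over both sets. Of 40 such groups 2 were flagged, and chance alone flags about 1 in 20. Prdm1 was at 4.17 log2 CPM in Il1rn-/- 3-b, below 4.81 to 4.89 in the 3 other Il1rn-/- libraries of set b, and that library also had the lowest plasma cell marker sum, 66.7 CPM without Rn45s. Xbp1 weighs most in such sums, with a median of 271.5 reads over libraries against 42.5 for Igkc, the next marker. Not every marker in the sum was low in Il1rn-/- 3-b. Igkc had 45 reads in it, against 10, 17 and 19 in Il1rn-/- 1-b, 2-b and 4-b, which differ in depth. Batf was at 6.44 log2 CPM in wild-type 1-a, above 5.998, the next highest of the 7 wild-type libraries, and that library also held the highest Prdm1, Nfil3, Ccr8, Areg and Cd44. The part of plasma cells in the first value and that of the library in the second was not tested.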

How the results depend on the processing

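No member passed between genotypes under any alternative run, over both sets (smallest adjusted p of 0.67 by limma), in set a (0.544) or in set b (0.233), so the count of 0 members held throughout, while the signs of small differences did not. Over all genes, the set b comparison called 1 gene with the stricter filter (a mean log2 CPM of at least 2), 3 after rescaling without ribosomal RNA, 6 with no intensity trend and 4 with the rRNA class as a further term, against 0. The difference between the sets called 2 with no intensity trend. The comparison of the sets called 4091 with library weights and 12 with the rRNA class as a further term, against 2408. With that term the estimate compares Il1rn-/- 3-b and 4-b with set a, and the rRNA-rich libraries of set b enter only through the shared genotype term. The Y-linked comparison called 23 with no intensity trend, 94 with library weights and 92 with voom, against 46, and 28 of 43 were higher after rescaling without ribosomal RNA, against 39 of 46. Leaving out 1 library at a time, counts ran from 0 to 1 in set a (1 without wild-type 3-a) and from 0 to 209 in set b. The 209 came with Il1rn-/- 2-b left out, against 7 for Il1rn-/- 1-b and 3 for wild-type 1-b. Between the sets they ran from 1341 to 3377, lowest without wild-type 2-a and 1566 without wild-type 1-a, and for the Y-linked class from 28 (without Il1rn-/- 4-b, 30 without Il1rn-/- 3-a) to 58. The titles give same-numbered libraries a number in common and do not say whether they were paired. The replicate block left 0 genes called over both sets, in set a and in set b.

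These genotype differences over both sets turned sign. With median centring Klrg1 was at -0.0092. After rescaling without ribosomal RNA Prdm1 was at -0.0014, Klrg1 at -0.060 and Cd44 at -0.027. With library weights Gata3 was at -0.0015, Prdm1 at -0.013, Cd44 at -0.12 and Fos at -0.12. With voom Klrg1 was at -0.020. With the rRNA class in place of the set Cd44 was at -0.057, Junb at -0.047, Jun at -0.040, Fos at -0.27 and Il2rb at 0.0072. With both classes Il2ra was at 0.016 and Il2rb at 0.075. In only the libraries that were not rRNA-rich Prdm1 was at -0.096, Klrg1 at -0.088, Cd44 at -0.10, Fos at -0.17, Il2ra at 0.012 and Il2rb at 0.0011. In only the rRNA-rich ones Gata3 was at -0.020, Areg at 0.032, Junb at -0.23, Jun at -0.097, Fos at -0.41, Fgl2 at -0.082, Cd83 at -0.072 and Il2rb at 0.016. In only those without Y-linked transcripts Irf4 was at 0.025, Areg at 0.41, Junb at -0.051, Jun at -0.17, Fos at -0.17, Cd83 at -0.026, Ccr4 at 0.052, Il6ra at -0.078, Il1rl1 at 0.052 and Il2rb at 0.12. In set a Prdm1 was at -0.16 with library weights. In set b Prdm1 was at -0.038 after rescaling and at -0.035 with voom, and with the rRNA class as a further term Gata3 was at -0.020, Nfil3 at -0.80, Id2 at -0.27 and Klrg1 at 0.32. Between the sets Actn1 was at -0.055 with that term. Between rRNA classes Nfil3 was at 0.12 and Prdm1 at 0.087 with the Y-linked class as a further term. In the Y-linked comparison Batf was at -0.031 with library weights and -0.087 after rescaling. The cause was not tested.

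Leaving out 1 library at a time, these also turned sign. Over both sets Areg ran from -0.51 to 0.35, Cd44 from -0.052 to 0.15, Id2 from -0.18 to 0.10, Klrg1 from -0.15 to 0.13, Nfil3 from -0.35 to 0.19 and Prdm1 from -0.16 to 0.26. In set a Gata3 ran from -0.32 to 0.087, Id2 from -0.40 to 0.0080, Klrg1 from -0.29 to 0.39, Nfil3 from -1.19 to 0.26 and Prdm1 from -0.53 to 0.59. In set b Batf ran from -0.31 to 0.049, Ccr8 from -0.28 to 0.028, Id2 from -0.14 to 0.31, Klrg1 from -0.34 to 0.17, Nfil3 from -0.17 to 0.83 and Prdm1 from -0.077 to 0.34. Between rRNA classes Ccr8 ran from -0.12 to 0.19 and Prdm1 from -0.40 to 0.14. In the Y-linked comparison Batf ran from -0.084 to 0.21 and Prdm1 from -0.096 to 0.78. Depth limits Areg and Nfil3 most, with as few as 1 and 3 reads in a library.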
